A study of Homo sapiens with 14 samples.

Results

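The data described here are the signals of RNA polymerase II at 8 genes of cholesterol synthesis and its control, SREBF2, INSIG1, HMGCS1, MVD, IDI1, FDFT1, SQLE and DHCR7, chosen by symbol from a table of 28159 windows, 1 per gene. Each symbol had 1 window, and all 8 windows passed the filter on low counts that left 25901 windows for testing. Chromatin was immunoprecipitated with an antibody against polymerase II phosphorylated at Ser5 and sequenced (ChIP-seq). This form of the polymerase gathers at promoters early in transcription. The cells were wild-type HCT116, a human colorectal carcinoma line with functional p53. Cells were electroporated with a bivalent stapled peptide at 10 µM or with water only. They were then split into 10 µM Nutlin3a, a small molecule that stabilises p53 by keeping MDM2 away from it, or into 0.1% DMSO, the solvent. Peptide wells received a further 200 nM of peptide, and all cells were fixed after 3 h. Per the series title, the peptide blocks binding of p53 to Mediator, a large coactivator through which transcription factors reach the polymerase.

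The ChIP libraries numbered 6, with 1 of Nutlin3a with peptide, 2 of Nutlin3a without peptide, 1 of DMSO with peptide and 2 of DMSO without peptide, and both peptide libraries carry replicate number 2. Each of the 4 conditions also had 2 inputs, which are sheared chromatin sequenced without the antibody. The labels do not say whether replicates were separate cultures, so the p-values may measure only technical spread. Total counts in the windows were 1290223 to 2240951 in the ChIP libraries and 161719 to 359276 in the inputs. Nutlin3a replicate 1 stood apart from the other ChIP libraries. It had the lowest total, and its summed signal over 15 windows of blood, mesenchyme and liver marker genes was 112 CPM (counts relative to the scaled library total), against 48.5 to 85.4 CPM in the other 5. Of those 15 markers, ALB was at 0 in 4 of the 6 ChIP libraries, CYP7A1 in 4, and PTPRC, COL3A1 and DCN in 1 each. All 8 colon epithelium markers had counts in each ChIP library, with KRT18 at 216 to 343 CPM and EPCAM at 84.6 to 117 CPM, while CDX1 stayed at 2.88 to 9.56 CPM and VIL1 at 3.84 to 12.3 CPM.

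Cholesterol is built from acetyl units. HMGCS1 acts on the way to mevalonate, MVD and IDI1 turn mevalonate into isoprene units, FDFT1 and SQLE make and oxidise squalene, and DHCR7 acts at the last step of a sterol branch. SREBF2 encodes SREBP-2, a transcription factor that is held in the endoplasmic reticulum when sterols are plentiful and released to the nucleus when they are scarce, where it raises the genes of this pathway. INSIG1 is the membrane anchor that holds SREBP-2 and its escort SCAP back, and is itself a target of SREBP-2. The mevalonate pathway genes have been reported to be restrained by p53. Ser5-phosphorylated polymerase at the start of a gene reports initiation and pausing, not the level of mRNA.

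The windows were 1000 bp long, which makes their levels comparable per length, and coordinates are hg38 and 1-based. Placement ignored strand. Of 9216 plus-strand genes with a RefSeq start of the same symbol and chromosome, 7161 had a window beginning 300 bp below a start coordinate. Of 8793 such minus-strand genes, 7249 had one that began at the same distance to within 1 bp. The windows of SREBF2 (chr22:41832805-41833804) and INSIG1 (chr7:155297472-155298471), on the plus strand, therefore reach mostly downstream of the start used for placement. Those of HMGCS1 (chr5:43312882-43313881), MVD (chr16:88662792-88663791), IDI1 (chr10:1048587-1049586) and DHCR7 (chr11:71448094-71449093), on the minus strand, reach mostly upstream of it. For HMGCS1 and DHCR7 that start lies inside the RefSeq gene, whose upstream ends are at 43313412 and 71449043, so much of the HMGCS1 window and nearly all of the DHCR7 window is within the gene. The IDI1 window also lies inside its RefSeq gene, which spans 1039152 to 1056704, at an internal start. The counts carry no stated strand, and the divergent or antisense genes SREBF2-AS1, INSIG1-DT, SNAI3-AS1 and DHCR7-DT lie in the windows of SREBF2, INSIG1, MVD and DHCR7. The MVD window shares 719 bp with that of SNAI3-AS1, whose signal was 70.9 and 107 CPM in the Nutlin3a libraries without peptide and 88.9 and 102 CPM in the DMSO libraries. Reads from such neighbours cannot be told apart from those of the named gene.

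Promoter sequence is shown for the 4 members with the highest ChIP signal, since these carry the best measured values and show the motifs that members have or lack. Each runs 5′ to 3′ along the gene from 250 bases before to 50 bases after the RefSeq start (GRCh38.p14), with the start base counted as 0. Capitals mark the sterol regulatory element letters (TCACNCCAC) and the CCAAT box (CCAAT, or ATTGG where it lies on the other strand), both searched on both strands.
SREBF2, chr22:41832855-41833154, plus strand: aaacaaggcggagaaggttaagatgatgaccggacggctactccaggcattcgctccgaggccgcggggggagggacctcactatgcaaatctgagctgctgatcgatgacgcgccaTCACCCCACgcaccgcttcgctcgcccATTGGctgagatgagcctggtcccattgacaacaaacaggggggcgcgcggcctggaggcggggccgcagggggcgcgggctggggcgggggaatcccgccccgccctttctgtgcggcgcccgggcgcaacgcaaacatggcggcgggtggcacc
INSIG1, chr7:155297628-155297927, plus strand: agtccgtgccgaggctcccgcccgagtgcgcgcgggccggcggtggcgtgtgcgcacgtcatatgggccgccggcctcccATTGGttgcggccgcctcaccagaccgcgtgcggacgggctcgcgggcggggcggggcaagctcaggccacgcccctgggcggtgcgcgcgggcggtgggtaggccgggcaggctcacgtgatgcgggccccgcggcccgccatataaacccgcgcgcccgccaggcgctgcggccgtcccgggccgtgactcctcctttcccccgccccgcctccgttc
MVD, chr16:88663042-88663341, minus strand: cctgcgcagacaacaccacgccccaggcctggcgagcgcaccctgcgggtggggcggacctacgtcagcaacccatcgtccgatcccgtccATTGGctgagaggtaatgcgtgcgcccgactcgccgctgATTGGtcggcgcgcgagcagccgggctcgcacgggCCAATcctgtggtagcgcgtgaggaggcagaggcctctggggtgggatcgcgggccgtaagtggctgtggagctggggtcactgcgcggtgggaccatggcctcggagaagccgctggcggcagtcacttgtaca
IDI1, chr10:1048837-1049136, minus strand: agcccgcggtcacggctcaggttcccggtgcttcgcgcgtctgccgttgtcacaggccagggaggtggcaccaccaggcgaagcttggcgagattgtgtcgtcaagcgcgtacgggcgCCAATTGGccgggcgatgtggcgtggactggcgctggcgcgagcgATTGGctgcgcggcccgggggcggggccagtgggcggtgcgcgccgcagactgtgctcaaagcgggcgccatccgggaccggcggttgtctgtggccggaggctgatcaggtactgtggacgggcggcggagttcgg

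SREBF2 holds the sterol regulatory element letters once, at position −133, with a CCAAT box on the other strand at −106. These letters occurred in 1.13% of 35116 RefSeq promoters of the same length, and SREBF2 was the 1 member with them among the 6 members searched. CCAAT boxes, which bind NF-Y, a cofactor of SREBP at sterol promoters, numbered 3 in MVD, 3 in IDI1 (of which 2 overlap), 2 in DHCR7 and 1 each in SREBF2 and INSIG1, and HMGCS1 had none. A CCAAT box was present in 34.6% of all promoters. INSIG1 also held 1 E-box (CACGTG, its own reverse complement) at −55, found in 7.26% of promoters, and 1 p53 half-site at −116, found in 6.63%. GC boxes (GGGCGG, both strands) were present in all 6, with 6 in INSIG1 and 1 in MVD, and in 45.0% of promoters. A full p53 site, a pair of half-sites with a short spacer, matched in none of the 6 and in 0.0285% of promoters. A letter match is a description of the sequence, and the INSIG1 promoter starts 106 bp from the start used for the deposited window. For each gene only the RefSeq start nearest to the deposited window was searched. For HMGCS1, IDI1 and DHCR7 that start lies inside the RefSeq gene. Motifs at their more upstream starts were thus not looked for, and the absence of a motif holds for the searched stretch only.

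In ChIP signal the 8 genes fell into an upper pair and a lower group of 6. MVD averaged 96.2 CPM over the 6 ChIP libraries, with a range of 87.1 to 112 CPM, and IDI1 averaged 94.7 CPM, with a range of 78.5 to 113 CPM. These ranges overlap each other and lie above those of the other 6. INSIG1 averaged 54.7 CPM (37.3 to 67.5), SREBF2 50.5 CPM (34.3 to 57.5), SQLE 42.2 CPM (32.8 to 47.6), HMGCS1 40.8 CPM (34.9 to 47.4), DHCR7 37.7 CPM (34.3 to 46.6) and FDFT1 35.4 CPM (29.0 to 41.3). Each of these 6 overlaps its neighbours in the order. The members' median of 46.3 CPM compares with 20.2 CPM over all tested windows and 29.1 CPM over windows of coding (NM) transcripts. Among all tested windows the members stood between the 62.1 percentile (FDFT1) and the 91.9 percentile (MVD).

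Against input the same windows were less distinct. Mean ChIP over mean input was 1.51 at IDI1 (94.7 against 62.6 CPM), 1.29 at MVD (96.2 against 74.6 CPM), 1.14 at INSIG1 and 1.06 at HMGCS1, while it was 0.813 at SREBF2, 0.763 at DHCR7, 0.709 at SQLE and 0.587 at FDFT1. The members had a median of 59.9 CPM in the inputs, against 31.9 CPM over all tested windows, so they were high in input as well as in ChIP. None of the 8 reached a ratio of 2, which 8.66% of windows did, and 4 of 8 exceeded 1. The lowest of these 4, HMGCS1, was at the 66.9 percentile of all windows, and SREBF2, the next below 1, at the 55.2 percentile. The median ratio was 0.711 over all windows and 0.796 over windows of coding (NM) transcripts. By this ratio IDI1 was at the 82.2 percentile and FDFT1 at the 41.6 percentile. Scaling was to each library's own window counts, so the ratio ranks windows and is no absolute enrichment. The input values rest on 1 to 32 counts per member and library, with Poisson 95% intervals of 0.0253 to 5.57 and 21.9 to 45.2 at these extremes, which cover counting error only. ChIP counts were 40 to 254, with intervals of 28.6 to 54.5 and 224 to 287. The 15 marker windows of other tissues had medians of 6.09 CPM in ChIP and 17.5 CPM in input.

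**Figure D1:**
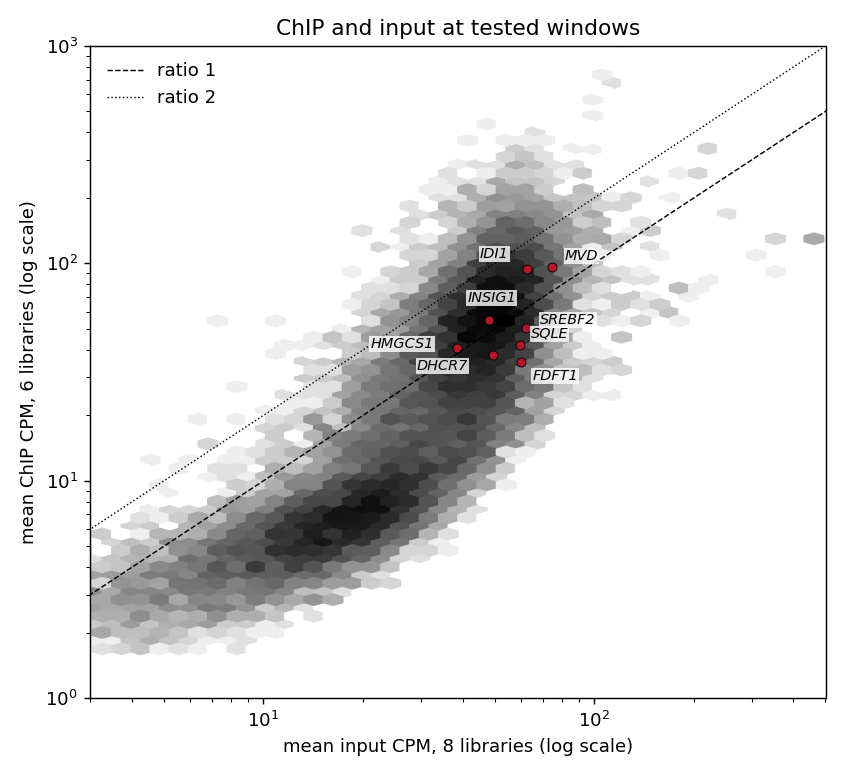
Mean ChIP CPM over 6 libraries (vertical axis) against mean input CPM over 8 libraries (horizontal axis), both on log scales, for the tested windows (grey hexagons, darker where more windows fall, on a log scale of number) and the 8 cholesterol synthesis genes (red points). IDI1 and MVD lie above the dashed line of ratio 1 with 94.7 and 96.2 CPM in ChIP, and none of the 8 reaches the dotted line of ratio 2.

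Nutlin3a against DMSO without peptide asked whether stabilising p53 for 3 h changes polymerase at these starts. No member passed the test in either direction. In the quasi-likelihood test of edgeR, with p-values adjusted by Benjamini-Hochberg over the 25901 windows, 0 of 8 members passed an adjusted p of 0.05 in either direction, where 0.00772% of all windows were called higher and 0.0% lower. The members also had 0 unadjusted p-values under 0.05 by edgeR, DESeq2 or limma-voom, where edgeR put 1.27% of all windows higher and 1.05% lower at that level. The members' median log2 fold change was −0.08, with 2 of 8 above 0, against a median of 0.04 over all windows, of which 54.0% were above 0. The members' median and the number above 0 changed with the settings. When windows below a mean count of 50 were dropped, the members' median was 0.06 with 5 of 8 above 0, against 0.0046 over all windows, and with total counts it was −0.01 with 4 of 8 above 0, against 0.11. With the authors' own scaling constants the members' median was 0.36 and all 8 were above 0, but the median of all windows then stood at 0.54, so log2 values are best read against that of all windows. Read so, the members' median was lower by the main settings, with total counts and with the authors' constants. It was higher with the filter at a mean count of 50. MDM2 and CDKN1A, known p53 targets, served as a check of the treatment. By the main settings of edgeR neither passed the adjusted threshold, with unadjusted p-values of 2.94e-05 at CDKN1A and 0.00143 at MDM2. CDKN1A passed with DESeq2 and limma-voom, and both passed in edgeR with the replicate number as a block. CDKN1A, the gene of the cell cycle inhibitor p21, had 302 ± 75.8 CPM with Nutlin3a and 116 ± 13.2 CPM with DMSO (SD, n = 2 each), a log2 fold change of 1.39 ± 0.25 (SE) and an adjusted p of 0.109 in edgeR, and its window shares 846 bp with that of DINOL. MDM2, the ligase that degrades p53, had 181 ± 16.0 CPM with Nutlin3a and 101 ± 2.25 CPM with DMSO, a log2 fold change of 0.84 ± 0.22 (SE) and an adjusted p of 0.982.

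Among the controllers, SREBF2 had 34.3 CPM in Nutlin3a replicate 1 and 50.2 CPM in replicate 2, against 53.3 and 51.9 CPM in the DMSO libraries. Both Nutlin3a values lie below both DMSO values, the single case among the 8 members where the groups do not overlap, and 15.7% of all windows were lower without overlap. The log2 fold change was −0.31 ± 0.26 (SE), with a 95% interval of −0.86 to 0.25, or 0.809-fold (0.551 to 1.19), and an adjusted p of 0.982 in edgeR. It was −0.07 without Nutlin3a replicate 1 and −0.60 without Nutlin3a replicate 2. INSIG1 had 37.3 and 67.5 CPM in the Nutlin3a libraries, against 50.5 and 67.3 CPM in the DMSO libraries. The spread within each group was wider than the gap between them, and the log2 fold change was −0.15 ± 0.28 with an interval of −0.75 to 0.45.

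At the entry to the pathway, HMGCS1 had 36.6 and 38.2 CPM in the Nutlin3a libraries, against 40.8 and 34.9 CPM in the DMSO libraries. These 4 values interleave, and the log2 fold change was −0.02 ± 0.28 (−0.60 to 0.56). MVD, which makes isopentenyl diphosphate, had 87.6 and 112 CPM in the Nutlin3a libraries, against 94.7 and 105 CPM in the DMSO libraries. Its group means were 100.0 ± 17.5 CPM with Nutlin3a and 100.0 ± 7.52 CPM with DMSO (SD, n = 2 each), and the log2 fold change was 0.01 ± 0.22 (−0.46 to 0.47). MVD is thus among the better bounded members, since its interval spans 0.725-fold to 1.39-fold. IDI1, the isomerase that follows it, had 78.5 and 102 CPM in the Nutlin3a libraries, against 92.3 and 91.4 CPM in the DMSO libraries. The Nutlin3a values lie on either side of the DMSO pair, and the log2 fold change was −0.02 ± 0.22 (−0.49 to 0.45).

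In the squalene and sterol steps, FDFT1 (squalene synthase, chr8:11802311-11803310, inside the RefSeq gene) had 30.5 and 40.6 CPM in the Nutlin3a libraries, against 41.3 and 37.0 CPM in the DMSO libraries, for −0.13 ± 0.29 (−0.75 to 0.49). SQLE (squalene epoxidase, chr8:124998205-124999204) had 32.8 and 44.2 CPM in the Nutlin3a libraries, against 47.6 and 40.6 CPM in the DMSO libraries, for −0.19 ± 0.28 (−0.78 to 0.40). In both genes Nutlin3a replicate 1 was the lowest of the 4 libraries and replicate 2 fell among or beside the DMSO values. The SQLE window shares 694 bp with that of LOC105375744, so the source of its reads is uncertain. DHCR7, the reductase of the last step, had 34.3 and 46.6 CPM in the Nutlin3a libraries, against 34.6 and 39.6 CPM in the DMSO libraries, for 0.13 ± 0.29 (−0.48 to 0.74), the highest of the 8. Adjusted p-values of the 8 members in edgeR were 0.982 to 0.997.

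**Figure D2:**
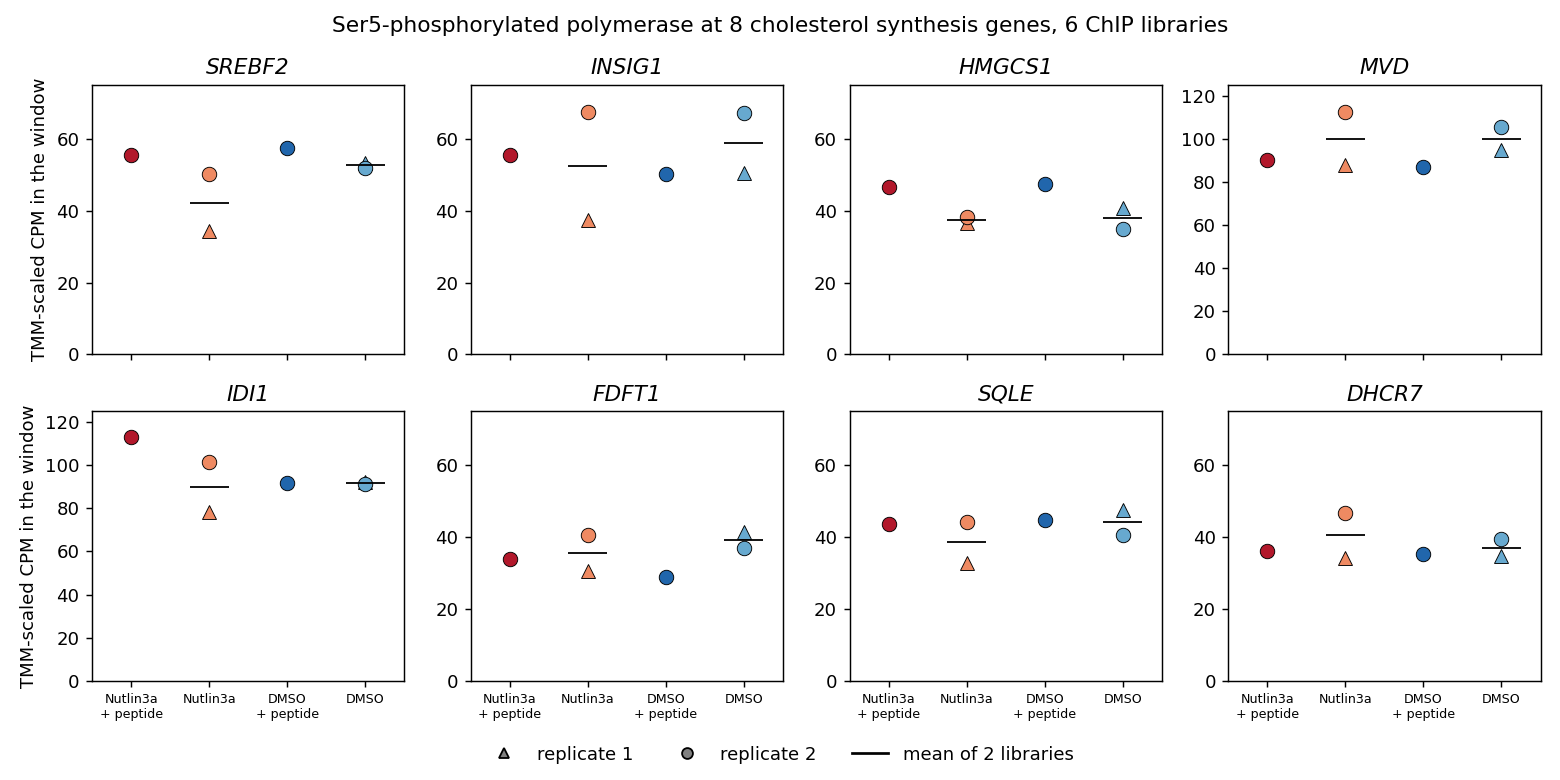
TMM-scaled CPM in the window of each gene (vertical axis, from 0) in the 6 ChIP libraries, grouped by treatment, with triangles for replicate 1, circles for replicate 2 and bars for the mean where a group has 2 libraries. The axis of MVD and IDI1 reaches higher than that of the others. Nutlin3a replicate 1 is the lowest point in 5 of 8 panels.

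The 2 replicate numbers gave opposite directions. Within replicate 1, the log2 ratio of Nutlin3a over DMSO was below 0 for all 8 members, from −0.62 at SREBF2 to −0.01 at DHCR7, with a median of −0.33 against 0.06 over all windows. Within replicate 2 it was above 0 for 7 of 8, from −0.05 at SREBF2 to 0.23 at DHCR7, with a median of 0.12 against 0.01 over all windows. With peptide, where only replicate 2 was measured and only values are given, it was above 0 for 5 of 8, from −0.05 at SREBF2 to 0.30 at IDI1, with a median of 0.04 against 0.00. SREBF2 was the lowest of the 8 each time, though its replicate 2 values, −0.05 in both, were near 0. Set against the median of all windows, which takes out a single scaling constant per library, the members' median was −0.39 within replicate 1 and 0.12 within replicate 2. Most of those windows had lower ChIP signal than the members (medians of 20.2 and 46.3 CPM). A difference that depends on signal level is not taken out, and windows of like signal were not compared within a replicate. Without Nutlin3a replicate 1, the fitted median of the members was 0.10 with 7 of 8 above 0, and without Nutlin3a replicate 2 it was −0.28 with 0 of 8 above 0. INSIG1 then had −0.64, an unadjusted p of 0.0415 and an adjusted p of 0.495 in edgeR, the lowest adjusted p of any member in any setting of this comparison.

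The replicate 1 values rest on Nutlin3a replicate 1, the library of lowest total. It was the lowest of the 6 ChIP libraries for 5 of 8 members, where 24.9% of all windows were lowest there. The members summed to 372 CPM in it, against 443 to 501 CPM in the other 5 libraries. The summed markers of other tissues were highest in the same library (112 against 48.5 to 85.4 CPM), so that members over markers came to 3.32 there and 5.18 to 9.38 elsewhere. By cell type, the blood markers summed to 51.8 CPM in it and 18.5 to 28.0 CPM in the others, the mesenchyme markers to 52.6 CPM against 19.2 to 48.0 CPM, and the liver markers to 7.62 CPM against 7.69 to 20.3 CPM. Their part in the lower member values was not tested.

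**Figure D3:**
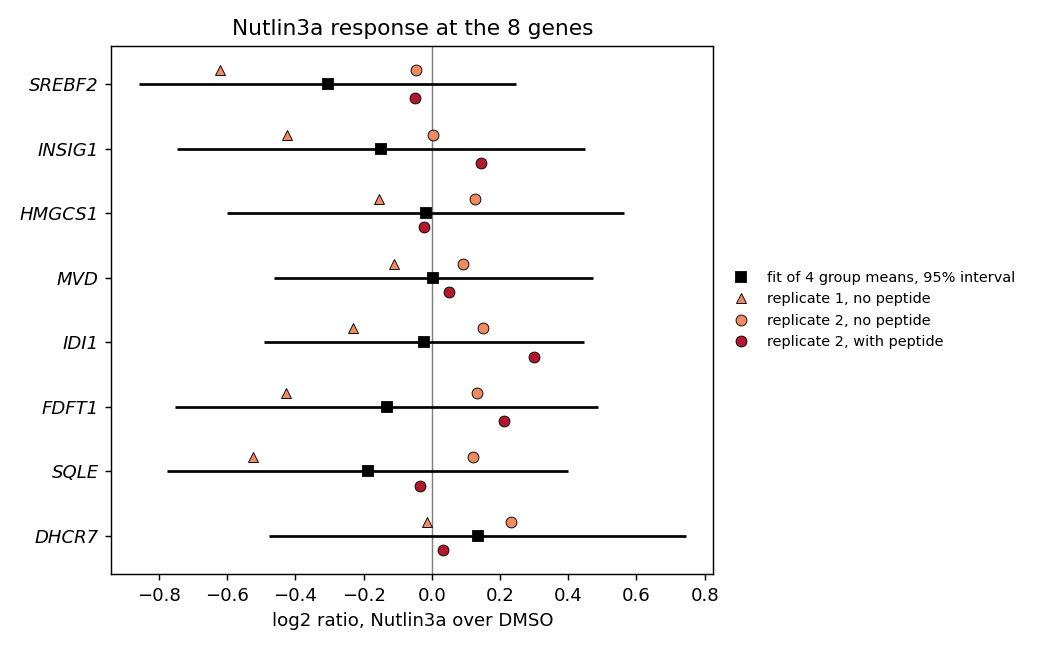
Log2 ratio of Nutlin3a over DMSO (horizontal axis) for each gene. Black squares and lines give the fitted value without peptide and its 95% interval, orange triangles and circles the ratio within replicates 1 and 2 without peptide, and red circles that with peptide. All 8 intervals include 0, and the triangles lie below 0 for all 8 genes while the orange circles lie above 0 for 7.

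Correlations between members were mostly above 0 over all 6 ChIP libraries and of mixed sign over those of replicate 2. Over the 6 ChIP libraries the 28 pairs of members had a median Pearson correlation of log2 CPM of 0.517, from −0.565 (HMGCS1 with MVD) to 0.918 (MVD with DHCR7), and 24 were above 0. Over the 4 replicate 2 libraries alone the median was −0.02 and 14 of 28 were above 0, with a range of −0.995 to 0.966. So few points leave each correlation loosely bounded. Pairs of other windows were not compared, so whether such values are particular to these genes was not tested. The points share libraries, and so depth and background. The windows whose pattern over the 6 libraries was most like the members' mean were DCAF5 (r = 0.996), PRRT3-AS1 (0.995) and MRPS24 (0.993), among 11451 windows with a mean count of at least 50. Their log2 fold changes were −0.10, −0.14 and −0.04. Of those windows 151 (1.32%) had r over 0.95.

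The wider pathway was read from 5 lists of 43 genes, all of which were tested. None passed the adjusted threshold in edgeR in either direction, where 0.00772% of all windows were called higher and 0.0% lower. By edgeR 1 gene had an unadjusted p under 0.05 and was higher, where 1.27% of all windows were higher and 1.05% lower. Of the 43 log2 fold changes 13 were above 0, against 54.0% over all windows. Their median was −0.13, against 0.04 over all windows. Groups did not overlap for 10 genes that were lower and 6 that were higher, where 15.7% and 16.1% of all windows did so. Among 8 genes that control SREBP the median was −0.11 with 2 above 0, and the highest was MBTPS2, a protease that releases SREBP, at 0.24 ± 0.32. SREBF1, which encodes the related factor SREBP-1, was at −0.06 ± 0.31 and SCAP at −0.29 ± 0.27. SREBF1 had 212 and 142 CPM in the Nutlin3a libraries, against 256 and 111 CPM in the DMSO libraries, so replicate 1 was higher in both groups.

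The 7 mevalonate branch genes had a median of −0.11 with 2 above 0, and IDI2, a paralog of IDI1, was the highest at 0.82 ± 0.55. IDI2 had 16.0 and 9.56 CPM in the Nutlin3a libraries, against 8.17 and 6.16 CPM in the DMSO libraries. These rest on 21 and 16 counts against 17 and 12, and all lie below the median of 20.2 CPM over all tested windows. The 10 sterol branch genes had a median of −0.19 with 2 above 0, from −0.52 ± 0.34 at NSDHL, whose window shares 791 bp with that of CETN2, to 0.25 ± 0.32 at HSD17B7. The 7 fatty acid genes had a median of −0.14 with 3 above 0, from −0.39 ± 0.33 at ELOVL6 to 0.38 ± 0.22 at SCD, the stearoyl-CoA desaturase.

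The 11 genes of uptake and efflux had a median of −0.06 with 4 above 0. NPC1, which exports cholesterol from lysosomes, was the lowest at −0.42 ± 0.23. ABCA1, which exports cholesterol from the cell, was at 0.70 ± 0.62, with 9.14 and 12.0 CPM in the Nutlin3a libraries, against 3.85 and 9.25 CPM in the DMSO libraries. These rest on 12 and 20 counts against 8 and 18. They lie near the median of 6.09 CPM of the 15 marker windows of other tissues, so ABCA1 was close to background.

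**Figure D4:**
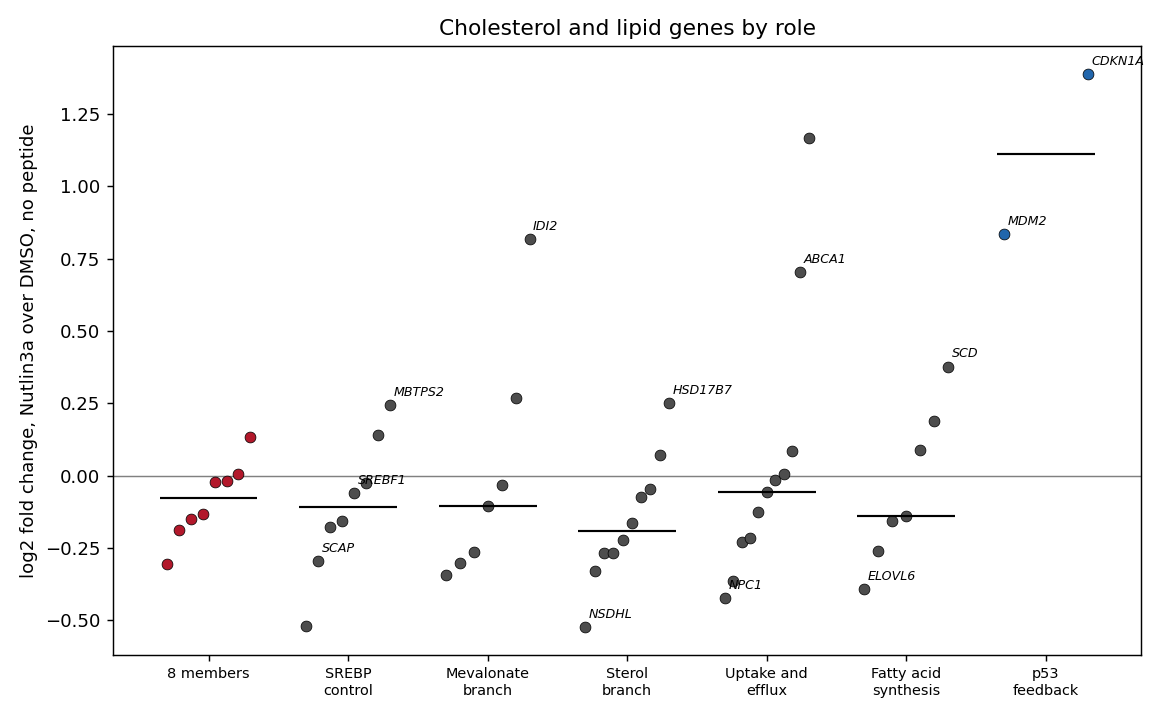
Log2 fold change of Nutlin3a over DMSO without peptide (vertical axis) for each gene (points), grouped by role, with bars for the median of each group. The 8 members are in red, the wider lists in grey, and MDM2 and CDKN1A, known p53 targets, in blue. The medians of the member and wider groups lie between −0.19 and −0.06, and not every point is named.

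The same ratios were read in the wider lists. Within replicate 1 the median log2 ratio was −0.33 for SREBP control, −0.31 for the mevalonate branch, −0.31 for the sterol branch, −0.23 for fatty acid synthesis and 0.02 for uptake and efflux. Within replicate 2 it was 0.12 for SREBP control, −0.02 for the mevalonate branch, −0.11 for the sterol branch, 0.07 for fatty acid synthesis and −0.06 for uptake and efflux. SREBP control and fatty acid synthesis thus were below 0 within replicate 1 and above 0 within replicate 2, as the members were, the mevalonate and sterol branches were below 0 in both, and uptake and efflux had the opposite signs. With peptide the medians were 0.07 for the mevalonate branch with 6 of 7 genes above 0, 0.03 for the sterol branch with 6 of 10, 0.08 for uptake and efflux, 0.03 for SREBP control and 0.00077 for fatty acid synthesis.

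The next comparison asked whether the peptide changes the response to Nutlin3a. The difference between the responses, with minus without peptide, had a median of 0.20 over the 8 members with 6 above 0, against −0.01 over all windows. No member passed, with 0.0% of all windows called in either direction, and none had an unadjusted p under 0.05 in edgeR, where 0.413% of all windows were higher and 0.637% lower. The difference was 0.35 (95% interval −0.72 to 1.43) at FDFT1, 0.33 (−0.47 to 1.13) at IDI1, 0.30 (−0.73 to 1.32) at INSIG1 and 0.26 (−0.67 to 1.19) at SREBF2. It was 0.15 at SQLE, 0.05 at MVD, −0.00 at HMGCS1 and −0.10 at DHCR7. Over the 8 members the intervals ran from 0.450-fold (DHCR7) to 2.69-fold (FDFT1). Without Nutlin3a replicate 1 the median was −0.04 with 3 above 0, and without Nutlin3a replicate 2 it was 0.45 with 8 above 0. The 43 wider genes had a median of 0.21 with 28 above 0 and 0 called.

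Set side by side with Nutlin3a present, peptide against no peptide gave SREBF2 55.6 CPM with peptide, against 34.3 and 50.2 CPM without, a log2 ratio of 0.38 ± 0.31. HMGCS1 had 46.7 CPM with peptide, against 36.6 and 38.2 CPM without (0.32 ± 0.33), and IDI1 had 113 CPM with peptide, against 78.5 and 102 CPM without (0.32 ± 0.26). In these 3 of 8 genes the single peptide library was above both libraries without peptide and in 0 below both, where 29.4% of all windows were above both and 30.4% below both. The other 5 were within the range without peptide, and the lowest was DHCR7, with 36.0 CPM with peptide against 34.3 and 46.6 CPM without (−0.18 ± 0.35). None of the 8 passed, with 0.0% of all windows called in either direction, and none had an unadjusted p under 0.05 in edgeR, where 0.564% of all windows were higher and 1.88% lower. The median was 0.12 against −0.02 over all windows, and adjusted p-values in edgeR were 0.999. Within replicate 2 the median was −0.14 with 3 above 0, and HMGCS1 (0.28), IDI1 (0.15) and SREBF2 (0.14) were the 3 above.

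With DMSO, peptide against no peptide gave a median of −0.04 with 3 above 0, against −0.02 over all windows, and 0 of 8 passed, with 0.0% of all windows called in either direction. None had an unadjusted p under 0.05 in edgeR, where 0.687% of all windows were higher and 0.83% lower. HMGCS1 was highest, with 47.4 CPM with peptide, against 40.8 and 34.9 CPM without (0.32 ± 0.33, interval −0.36 to 1.01). FDFT1 was lowest, with 29.0 CPM with peptide, against 41.3 and 37.0 CPM without (−0.43 ± 0.37, interval −1.21 to 0.34). SREBF2 had 57.5 CPM with peptide, against 53.3 and 51.9 CPM without (0.13 ± 0.31), and INSIG1 had 50.2 CPM with peptide, against 50.5 and 67.3 CPM without (−0.23 ± 0.35). Here the peptide value of HMGCS1 and SREBF2 lay above both libraries without peptide, and that of FDFT1, MVD and INSIG1 below both, or 2 and 3 of 8, where 31.7% of all windows were above both and 31.8% below both. The others were MVD at −0.20, DHCR7 at −0.08, SQLE at 0.02 and IDI1 at −0.00. Each of these comparisons rests on 1 peptide library, which was assumed to vary like the pairs.

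**Figure D5:**
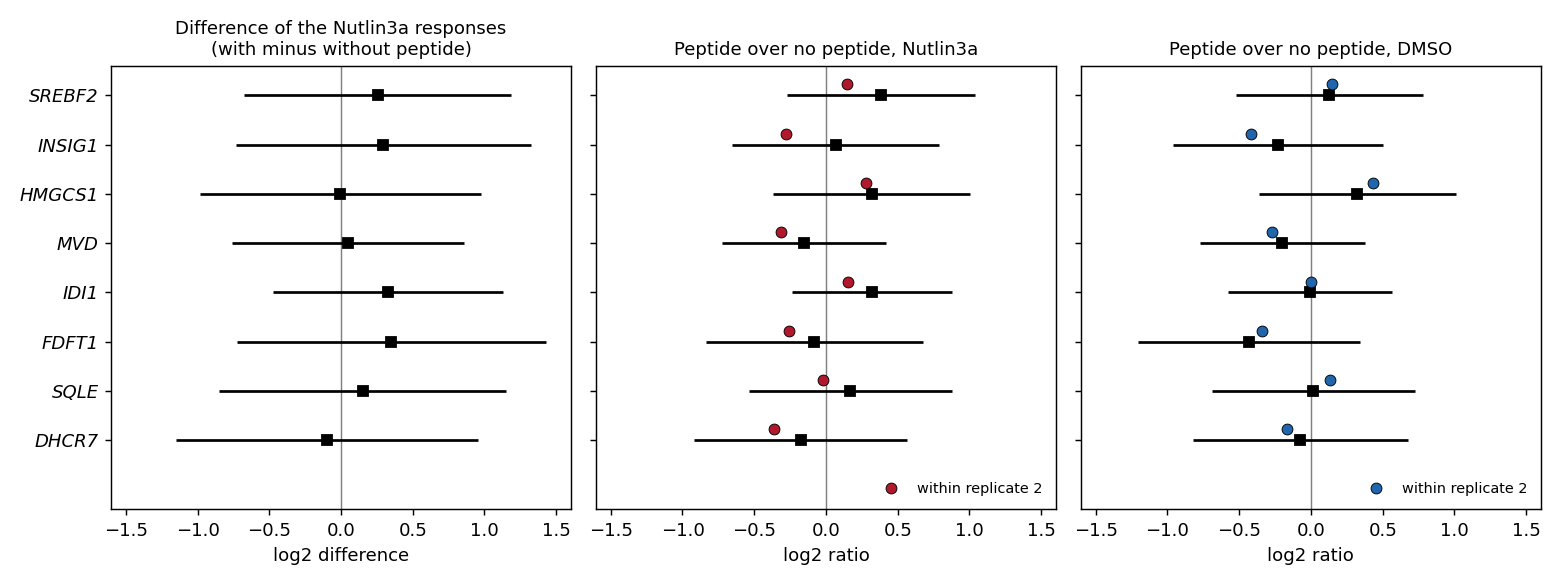
Log2 difference or ratio (horizontal axes) for each gene, with black squares for the fitted value and lines for its 95% interval. The left panel gives the Nutlin3a response with minus without peptide, the middle panel peptide over no peptide with Nutlin3a and the right panel the same with DMSO, with coloured circles for the ratio within replicate 2. All intervals include 0.

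The inputs, which carry no antibody, were compared the same way. Nutlin3a against DMSO without peptide in the inputs gave the members a median of −0.19 with 3 of 8 above 0, against 0.01 over 14573 windows, and 0 of 8 passed, with 0.0% of windows called in either direction. None had an unadjusted p under 0.05, where 1.96% of windows were higher and 1.38% lower. Values ran from −0.37 ± 0.51 at MVD to 0.81 ± 0.74 at DHCR7. DHCR7 shows how thin the inputs are, with 22 and 2 counts in the Nutlin3a inputs and 11 and 4 counts in the DMSO inputs. SREBF2, whose ChIP groups did not overlap, was at 0.26 ± 0.60 in the inputs.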

How the data were processed

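Ser5-phosphorylated polymerase II was measured in 6 ChIP and 8 input libraries of HCT116 cells, grouped by the sample titles and treatment labels. The authors deposited raw read counts per gene in 1000 bp windows on hg38, per the submitters' processing notes, and the aligner, counter and read filters are not given in the sources used here. For each ChIP library a scaled signal was deposited as well, which equals the counts times 1 constant per library (0.595 to 1.82), and how that constant was made is not given in the sources used here. No sample column was left unused. Symbols of 26618 windows (94.5%), and of all 8 members, matched RefSeq.

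The members, the gene lists and the comparisons were chosen with earlier results of these data known. The test was the quasi-likelihood test of edgeR 4.0.16 (legacy=TRUE; R 4.3.3) on 4 group means over the 6 ChIP libraries, with TMM scaling (factors 0.952 to 1.02), filterByExpr at a minimum count of 10, and Benjamini-Hochberg adjustment over 25901 windows at 0.05. The biological coefficient of variation was 26.0%, on 2 residual and 14.75 prior degrees of freedom. Inputs were fitted alike. CPM are TMM-scaled, log2 ratios within a replicate number used a prior count of 2, errors beside log2 values are standard errors of the fit, and intervals are 95% intervals. Nutlin3a against DMSO with peptide is 1 library against 1 and is given as values, with no test reported. The test was tested on simulated data with known changes. Counting intervals are exact Poisson intervals.

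Genes named are the 8 members, SREBF1, SCAP and ABCA1, the highest and lowest gene of each wider list by log2 fold change, MDM2 and CDKN1A, and the 3 windows most correlated with the members' mean. A few further genes covered by it are not reported here. Alternatives were other scalings (RLE size factors, total counts, the authors' constants), other filters, DESeq2 1.42.0, limma-voom 3.58.1, edgeR with legacy=FALSE, the 4 libraries without peptide alone, a replicate block, and leaving out each replicate in turn. Promoters are RefSeq sequences of GRCh38.p14 from 250 bases before to 50 after the start. Promoters of FDFT1 and SQLE were not used here.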

Additional observations from a re-analysis of the deposited data

How the results depend on the processing

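No member was called under any alternative, and the lowest adjusted p of a member was 0.495 for Nutlin3a against DMSO, 0.585 for peptide against none with Nutlin3a and 1.00 for the other comparisons. Signs did change, and most estimates lie near 0. The cause of the changes was not tested. The intervals rest on counts of 40 to 254 per ChIP window and a biological coefficient of variation of 26.0%. Groups without peptide have 2 libraries, and each peptide group is 1 library.

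For Nutlin3a against DMSO without peptide, 2 windows were higher by the main settings, 6 with total counts, 8 with DESeq2, 4 with limma-voom, and 0 with the authors' constants, a mean count of at least 50, legacy=FALSE or the 4 libraries without peptide. CDKN1A passed with DESeq2 (1.40) and limma-voom (1.37). With the authors' constants the median of all windows was 0.54. The genes listed next were below 0 by the main settings, and here above 0 but below that median. They were SREBF2 0.11, INSIG1 0.23, HMGCS1 0.46, IDI1 0.43, FDFT1 0.30, SQLE 0.24, NPC1 0.061, SCAP 0.10, SREBF1 0.50 and ELOVL6 0.16. MVD and DHCR7, above 0 by both, were at 0.46 and 0.57 with the constants. The medians were then 0.36 for the members and 0.36 for the wider lists. In the other comparisons the constants gave −0.0022 for the difference at MVD, −0.12 at INSIG1 and −0.083 at SQLE for peptide against none with Nutlin3a, where 55 windows were lower and the median of all windows was −0.34, and −0.11 at SREBF2 and −0.22 at SQLE for peptide against none with DMSO, where that median was −0.26.

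With total counts, Nutlin3a against DMSO was 0.044 at IDI1, 0.051 at HMGCS1 and 0.017 at SREBF1, the difference was −0.027 at MVD, and peptide against none with DMSO was 0.046 at IDI1. With a mean count of at least 50, Nutlin3a against DMSO was 0.0067 at FDFT1, 0.12 at IDI1, 0.13 at HMGCS1 and 0.11 at SREBF1, the difference was −0.0066 at SQLE and −0.11 at MVD, and peptide against none was −0.014 at INSIG1 with Nutlin3a and 0.064 at IDI1 with DMSO. With no filter, Nutlin3a against DMSO was −0.0020 at MVD, and the difference was 0.0017 at HMGCS1. With the 4 libraries without peptide, Nutlin3a against DMSO was 0.0022 at IDI1 and 0.0092 at HMGCS1, and limma-voom gave 0.023 at SREBF1.

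Leaving out in turn each replicate that enters the comparison, Nutlin3a against DMSO gave 0 to 88 windows higher, with 88 without DMSO replicate 1, and 0 to 15 lower, with 15 without Nutlin3a replicate 1. Its range was −0.64 to 0.20 at INSIG1, −0.12 to 0.10 at HMGCS1, −0.18 to 0.17 at MVD, −0.21 to 0.14 at IDI1, −0.35 to 0.051 at FDFT1, −0.41 to 0.0015 at SQLE and −0.10 to 0.33 at DHCR7. It was −0.014 to 0.50 at HSD17B7, −0.69 to 0.0018 at SCAP and −0.53 to 0.66 at SREBF1. At those members other than HMGCS1 the low end came without Nutlin3a replicate 2 and the high end without Nutlin3a replicate 1. The difference had 0 to 34 windows lower, with 34 without DMSO replicate 1, and a range of −0.057 to 0.79 at INSIG1, −0.12 to 0.10 at HMGCS1, −0.12 to 0.23 at MVD, −0.040 to 0.38 at SQLE and −0.30 to 0.13 at DHCR7. Peptide against none with Nutlin3a had 0 to 7 windows higher and 2 to 112 lower, with 112 without Nutlin3a replicate 2, and a range of −0.29 to 0.56 at INSIG1, −0.32 to 0.030 at MVD, −0.27 to 0.14 at FDFT1, −0.028 to 0.40 at SQLE and −0.38 to 0.058 at DHCR7. Peptide against none with DMSO had 0 to 53 windows lower, with 53 without DMSO replicate 2, and a range of −0.42 to 0.0014 at INSIG1, −0.0037 to 0.0018 at IDI1, −0.084 to 0.14 at SQLE and −0.17 to 0.031 at DHCR7.

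The replicate numbers are shared between groups, but the labels do not say that they pair samples, and with 2 pairs the deviations of same-numbered libraries correlated at 0.454 over 25901 windows. With the replicate number as a block, 39 windows were higher for Nutlin3a against DMSO, 5 were lower for the difference, 1 was lower for peptide against none with Nutlin3a and 4 were higher for it with DMSO. CDKN1A (1.37) and MDM2 (0.83) then passed and no member did. The block gave −0.0043 at MVD and 0.022 at SREBF1 for Nutlin3a against DMSO, −0.18 at INSIG1 for peptide against none with Nutlin3a and −0.017 at SQLE for it with DMSO, and a median over the members of −0.08 for Nutlin3a against DMSO, 0.21 for the difference, 0.0041 with 4 of 8 above 0 for peptide against none with Nutlin3a, −0.16 with 2 of 8 above 0 for it with DMSO, and −0.24 in the inputs.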

Other observations

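MIR33A, a microRNA gene inside an intron of SREBF2 that is known to repress the cholesterol exporter ABCA1, has a window of its own, and it is given here after its values were seen. It had 12.0 CPM with Nutlin3a and peptide, 18.3 and 16.1 CPM with Nutlin3a alone, 20.7 CPM with DMSO and peptide, and 17.8 and 21.1 CPM with DMSO alone. Its log2 ratio of Nutlin3a over DMSO was 0.04 within replicate 1, −0.36 within replicate 2 and −0.73 with peptide, and no test of it is reported here. The MIR33A values rest on 24 to 41 counts per ChIP library. The groups without peptide overlapped, and its order across libraries was not that of the SREBF2 window, which had 55.6 CPM with Nutlin3a and peptide and was lowest in Nutlin3a replicate 1. The window of another microRNA gene, MIR33B, had log2 ratios of 0.27 within replicate 1, −0.42 within replicate 2 and −0.47 with peptide, on 30 to 68 counts per ChIP library. The pattern was thus not particular to MIR33A.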
